A study of Mus musculus with 23 samples.

Results

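A set of 10 genes that the transcription factor p53 is known to switch on was followed through every library of the series: Cdkn1a, Mdm2, Sesn1, Sesn2, Pmaip1, Bbc3, Bax, Ccng1, Zmat3 and Fas. They were picked by symbol, with earlier results of these data known, and make up 10 of the 21264 genes in the deposited table. Each symbol was found there as 1 row. All 10 passed the filter on low values, at least 1 CPM in at least 3 libraries, in every fit. CPM are reads of a gene relative to all reads of its library, brought to a common total.

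RNA was sequenced in bulk from 23 mouse libraries of iPax3 cells, a line derived from embryonic stem cells and used here as a source of myogenic progenitors. Re-isolated N1OE cells (4 libraries) carry the label of donor-derived satellite cells, which are muscle stem cells, with overexpression of NICD1, the intracellular and active part of the receptor Notch1. Re-isolated N1KO cells (3 libraries) are labelled the same way with a knockout of Notch1, and re-isolated control cells (9 libraries) are labelled WT. Cultured N1OE progenitors (3 libraries) and cultured control progenitors (4 libraries, WT) were sequenced without transplantation. All groups share the iPax3 background. The promoter behind NICD1, the number of clones, the recipient mice, their age, the time after transplantation and any pooling are not given in the sources used here. Whether replicates are separate cultures or animals is not stated, and p-values therefore cover only how these libraries scatter, which may be technical.

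The protein p53 is held low in unstressed cells, largely because Mdm2 marks it for degradation, and it accumulates after DNA damage and other stresses. It then raises genes that halt the cell cycle, limit growth and damage, or trigger death by way of mitochondria or death receptors, and it raises Mdm2 itself as a negative feedback. In skeletal muscle, satellite cells stay quiescent until injury, and Cdkn1a is also known to be induced without p53 when myoblasts leave the cell cycle to differentiate.

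The members fall into 4 roles, and their positions below are from GENCODE M21 on GRCm38/mm10. For arrest and feedback, Cdkn1a (chr17:29090976-29100727, plus strand) encodes p21, an inhibitor of cyclin-dependent kinases. Ccng1 (chr11:40748552-40755311, minus strand) encodes cyclin G1, a partner of the phosphatase PP2A that acts on Mdm2. Mdm2 (chr10:117688875-117710758, minus strand) encodes the ubiquitin ligase of p53, and Zmat3 (chr3:32334792-32366014, minus strand) encodes a zinc finger protein that binds RNA. For stress and growth control, Sesn1 (chr10:41809935-41908424, plus strand) and Sesn2 (chr4:132492032-132510501, minus strand) encode sestrins, which restrain the growth kinase mTORC1. For mitochondrial death, Pmaip1 (Noxa) and Bbc3 (Puma, chr7:16308393-16318205, plus strand) encode BH3-only proteins, which trigger apoptosis by binding proteins of the BCL2 family. Bax (chr7:45461697-45466898, minus strand) encodes a pore-forming effector of the same family. Fas (chr19:34290666-34327772, plus strand) encodes a death receptor at the cell surface. All 10 are protein coding. Exons of Cdkn1a overlap 273 bases of a gene on the opposite strand that is not in the table, and exons of Bax overlap 192 bases of Gm45808, which had 0 reads in every library.

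Of the promoter sequences of these genes, 6 are shown because their genes give the results that follow or differ in the motifs they hold. They are RefSeq sequences on GRCm38.p6, each 250 bases before to 50 bases after an annotated start, written 5′ to 3′ on the strand of the gene. Capitals mark matches to the p53 half-site consensus, to the RBPJ motif GTGGGAA, which the DNA-binding partner of NICD1 recognises, and to the myogenic E-box CAGCTG. Both strands were searched.
Cdkn1a upstream start (chr17:29090729-29091028, plus strand): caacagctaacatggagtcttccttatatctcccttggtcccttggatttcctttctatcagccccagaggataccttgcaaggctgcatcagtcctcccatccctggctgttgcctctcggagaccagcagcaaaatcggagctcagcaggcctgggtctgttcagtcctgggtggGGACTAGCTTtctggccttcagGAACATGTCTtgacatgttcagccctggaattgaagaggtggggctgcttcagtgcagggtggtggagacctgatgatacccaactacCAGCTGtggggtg
Ccng1 (chr11:40755237-40755536, minus strand): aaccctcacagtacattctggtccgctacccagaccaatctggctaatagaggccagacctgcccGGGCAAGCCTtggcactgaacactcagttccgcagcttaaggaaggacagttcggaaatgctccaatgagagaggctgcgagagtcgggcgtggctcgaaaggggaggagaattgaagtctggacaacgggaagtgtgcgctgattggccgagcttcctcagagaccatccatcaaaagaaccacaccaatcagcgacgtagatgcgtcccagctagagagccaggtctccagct
Mdm2 (chr10:117710709-117711008, minus strand): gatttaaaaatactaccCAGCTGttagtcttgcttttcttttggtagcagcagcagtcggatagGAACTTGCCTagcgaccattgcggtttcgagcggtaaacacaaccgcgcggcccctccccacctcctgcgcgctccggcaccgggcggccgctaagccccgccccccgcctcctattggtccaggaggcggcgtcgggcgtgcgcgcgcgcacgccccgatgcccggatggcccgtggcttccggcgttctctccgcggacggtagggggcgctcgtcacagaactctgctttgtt
Sesn1 first start (chr10:41810324-41810623, plus strand): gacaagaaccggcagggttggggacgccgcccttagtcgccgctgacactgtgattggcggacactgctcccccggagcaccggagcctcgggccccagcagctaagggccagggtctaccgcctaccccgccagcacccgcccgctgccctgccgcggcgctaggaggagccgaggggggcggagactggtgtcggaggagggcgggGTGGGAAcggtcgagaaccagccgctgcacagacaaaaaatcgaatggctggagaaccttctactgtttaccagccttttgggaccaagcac
Sesn1 second start (chr10:41887189-41887488, plus strand): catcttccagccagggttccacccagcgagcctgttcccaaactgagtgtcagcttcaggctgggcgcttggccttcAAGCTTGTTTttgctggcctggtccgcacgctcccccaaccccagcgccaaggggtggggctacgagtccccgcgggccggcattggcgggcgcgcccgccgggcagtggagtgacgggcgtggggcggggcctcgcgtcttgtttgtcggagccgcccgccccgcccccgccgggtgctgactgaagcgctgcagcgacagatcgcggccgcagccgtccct
Sesn2 (chr4:132510407-132510706, minus strand): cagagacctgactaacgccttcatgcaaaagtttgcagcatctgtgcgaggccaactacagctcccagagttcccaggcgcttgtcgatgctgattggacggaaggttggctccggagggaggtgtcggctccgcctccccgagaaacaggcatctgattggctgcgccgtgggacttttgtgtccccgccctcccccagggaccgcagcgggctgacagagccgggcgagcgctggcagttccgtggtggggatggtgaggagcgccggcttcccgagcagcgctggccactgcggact

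The table of promoters held 12 starts for 8 of the 10 members. The p53 half-site consensus occurred in 5 of the 12, against 8.36% of the 32851 promoters in the table. These 5 were Ccng1, Mdm2, Bax, the second start of Sesn1 and the upstream start of Cdkn1a. Relative to each start, matches began at -73 and -51 in Cdkn1a, -185 in Ccng1, -186 in Mdm2, -173 in Sesn1 and -201 in Bax. The RBPJ motif occurred once, at -42 of the first start of Sesn1, against 6.38% of all promoters. The E-box occurred in Mdm2 at -233 and in Cdkn1a at 38 bases after the upstream start, against 16.3% of all promoters. The GC box GGGCGG occurred in 10 of the 12 and in 35.7% of all promoters, and TATAAA in 0 of the 12 and in 13.6% of all. Sesn2, Bbc3, Fas and the other start of Cdkn1a held none of the marked motifs in these windows. A match describes letters and is not evidence of binding.

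Some facts of the libraries touch every result. RNA of cultured cells was isolated in Trizol for TruSeq stranded libraries, and that of re-isolated cells in Buffer RLT for NEBNext low-input amplification and Nextera XT, so setting and kit cannot be told apart. The re-isolated controls fall into 2 sets by a suffix in their column headers, GoF, which the labels do not explain: 5 marked controls (replicates 1, 4, 7, 8 and 9) and 4 unmarked controls (replicates 2, 3, 5 and 6). The headers of all re-isolated N1OE and N1KO libraries lack it. In culture all 4 controls and N1OE replicate 1 carry it and N1OE replicates 2 and 3 do not, so there the suffix is largely joined to genotype, and it also enters the comparisons between settings. The number of genes with 1 read divided by the number with 2 reads was 4.18 to 6.82 in re-isolated N1OE, 1.25 to 1.4 in N1KO, 4.17 to 5.91 in marked controls and 1.08 to 1.5 in unmarked controls, so in this respect, unlike in the header, N1OE resembled the marked set, and N1KO the unmarked set. Notch1 reached 98.1 to 257 CPM in re-isolated N1OE and 15.6 to 52.6 CPM in N1KO, against 14.9 to 88.9 CPM in marked and 136 to 174 CPM in unmarked controls, so N1OE lay above the marked controls and overlapped the unmarked ones, and N1KO overlapped the marked controls and lay below the unmarked ones. Notch1 RNA thus bears out each label against 1 of the 2 sets only. Pax7, which defines satellite cells, was at 91.8 to 154 CPM in re-isolated N1OE, 19.9 to 153 CPM in N1KO and 11.5 to 113 CPM in re-isolated controls, and at 0.891 CPM or less in culture. Library totals were 11637817 to 29154176 reads, and the lowest member value in any library was 66 reads, for Zmat3.

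Trp53, which encodes p53, was itself measured well in all groups. It stood at 147, 119, 114 and 41.5 CPM in re-isolated N1OE and at 89.7, 76.9 and 112 CPM in N1KO, against 74.8 to 139 CPM in re-isolated controls (median 116). Neither difference from the controls passed (log2 fold change -0.19, adjusted p = 0.740 for N1OE, and -0.25, adjusted p = 0.841 for N1KO). In culture it stood at 199, 236 and 239 CPM in N1OE, against 151, 171, 185 and 139.5 CPM in controls, without overlap, as for 21.1% of genes, and did not pass (log2 fold change 0.48 ± 0.12, adjusted p = 0.0511). These are transcript levels, and the protein was not measured.

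**Figure D1:**
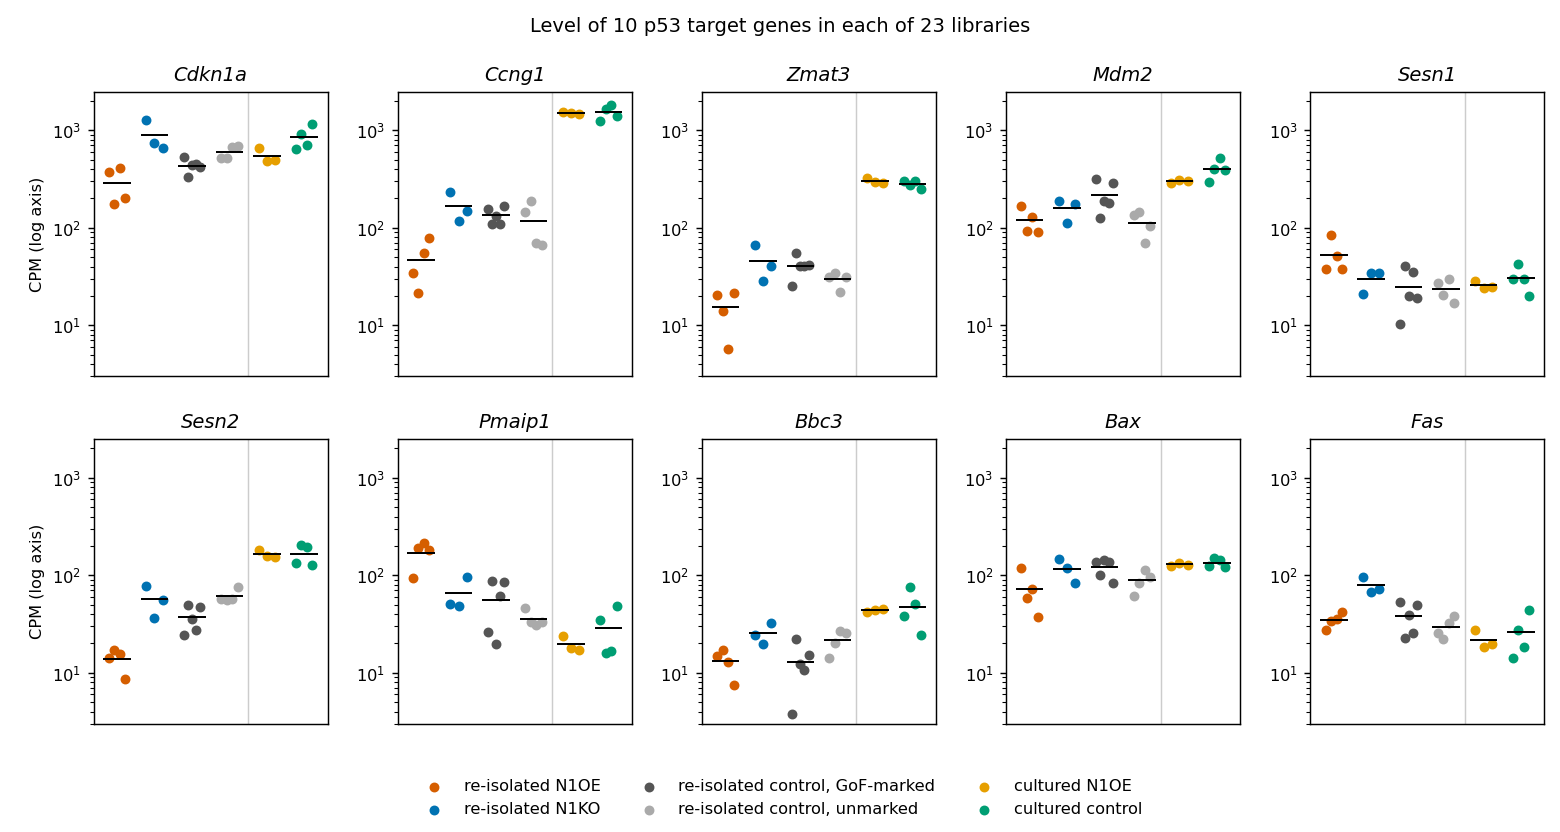
Level of each of the 10 genes in every library, in CPM on a log axis. Each panel is 1 gene, each point 1 library and each black line a group mean, with re-isolated controls split into marked and unmarked. Ccng1 lies between 1252 and 1817 CPM in the cultured libraries and between 21.6 and 231 CPM in the re-isolated ones, and Pmaip1 is highest in re-isolated N1OE.

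Levels differed widely between members. Per kilobase of exon, Cdkn1a ranked highest in every re-isolated group, with means of 81.1 CPM per kb in N1OE, 251 in N1KO and 143 in re-isolated control. In culture Ccng1 ranked highest, with 428 CPM per kb in N1OE and 436 in control, and Cdkn1a came next with 154 and 241. Zmat3 was the lowest in re-isolated cells, with 1.34 CPM per kb in N1OE, 3.95 in N1KO and 3.13 in control. Sesn1 was the lowest in culture, with 6.46 CPM per kb in N1OE and 7.65 in control. Pmaip1 changed place most between settings and genotypes, as it ranked 2 of 10 in re-isolated N1OE (62.2 CPM per kb), 5 of 10 in re-isolated control (17.3) and 9 of 10 in both cultured groups (7.22 in N1OE and 10.7 in control).

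The first comparison asks what NICD1 overexpression did to these genes in re-isolated cells. In N1OE against control 5 of the 10 passed the threshold, an adjusted p under 0.05, with 2 higher and 3 lower, where 7.06% of the 14155 genes tested passed (3.78% higher and 3.29% lower). Pmaip1 and Sesn1 were higher, and Sesn2, Ccng1 and Zmat3 were lower, so the genes did not shift as a block. The median log2 fold change was -0.53 over the members (-0.34 without N1OE replicate 4) and 0.06 over all genes tested. In bulk samples, fewer cells of a type and less RNA per cell cannot be told apart.

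The largest rise was in Pmaip1, which encodes the BH3-only protein Noxa. It had 94.2, 189, 216 and 181 CPM in N1OE, against a range of 19.8 to 86.7 CPM in controls with a median of 33.6. All 4 N1OE libraries lay above all 9 controls, as did 2.98% of genes tested. The means were 170 ± 52.6 CPM in N1OE (SD, n = 4) and 47.2 ± 25.1 CPM in control (SD, n = 9). Its log2 fold change was 1.96 with an SE of 0.37 (adjusted p = 0.00277). Against each set of controls alone it was 1.77 for the marked (adjusted p = 0.00802) and 2.19 for the unmarked (adjusted p = 0.000184), and it passed whichever of the 16 re-isolated libraries was left out.

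The other death genes did not pass. Bbc3 (Puma) had 15, 17.2, 12.9 and 7.57 CPM in N1OE, against 3.77 to 26.7 CPM in controls (median 15.1), with a log2 fold change of -0.23 and a 95% interval of -1.11 to 0.65 (adjusted p = 0.790). Bax had 119, 58.0, 72.8 and 37.6 CPM in N1OE, against 60.8 to 145 CPM in controls (median 101), with a log2 fold change of -0.64 and an interval of -1.26 to -0.02 (adjusted p = 0.206). Fas had 27.2, 34.2, 35.6 and 42.5 CPM in N1OE, against 22.1 to 53.4 CPM in controls (median 32.8), with a log2 fold change of 0.07 and an interval of -0.50 to 0.65 (adjusted p = 0.905). For all 3 the N1OE libraries overlapped the controls, so Noxa stood alone among the 4 apoptosis genes in passing.

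The sestrin pair moved in opposite directions. Sesn2 had 14.2, 17.3, 15.7 and 8.71 CPM in N1OE, against 24.7 to 76.5 CPM in controls (median 49.8). Every N1OE library lay below every control, as did 1.82% of genes tested. The means were 14 ± 3.74 CPM in N1OE and 48.1 ± 16.4 CPM in control (SD, n = 4 and 9), a log2 fold change of -1.74 ± 0.32 (adjusted p = 0.00182). It held against marked controls alone (-1.40, adjusted p = 0.00921), against unmarked controls alone (-2.17, adjusted p = 0.000200) and with any 1 library left out.

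Sesn1 had 37.9, 83.7, 51.3 and 38.2 CPM in N1OE, against 10.3 to 40.7 CPM in controls (median 20.7). Its N1OE values were high but 2 of the 4 overlapped the highest control. The log2 fold change was 1.14 ± 0.34 (adjusted p = 0.0451). The call did not hold throughout, as it was lost in 11 of the 16 fits that leave out 1 library (log2 fold change 0.89 to 1.27, adjusted p 0.0258 to 0.183) and against the marked controls alone (1.16, adjusted p = 0.0594).

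Among the genes of arrest and feedback, Ccng1 had 34.3, 21.6, 55.1 and 78.0 CPM in N1OE, against 66.3 to 187 CPM in controls (median 133). Replicate 4 of N1OE lay within the control range and the other three lay below it. The log2 fold change was -1.50 ± 0.34 (adjusted p = 0.0103), with -1.65 (adjusted p = 0.00312) against marked controls and -1.32 (adjusted p = 0.0287) against unmarked ones. Without N1OE replicate 2 it was -1.18 and did not pass (adjusted p = 0.0651).

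Zmat3 had 20.5, 13.9, 5.67 and 21.3 CPM in N1OE, against 21.9 to 55.3 CPM in controls (median 34.7). The groups did not overlap, although the highest N1OE library and the lowest control nearly met. The log2 fold change was -1.34 ± 0.34 (adjusted p = 0.0215). It did not pass against unmarked controls alone (-1.11, adjusted p = 0.0601), without N1OE replicate 2 (-1.35, adjusted p = 0.0597) or without N1OE replicate 3 (-0.92, adjusted p = 0.117).

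Cdkn1a, the most abundant member per length in these cells, had 371, 174, 406 and 200.3 CPM in N1OE, against 329.9 to 691 CPM in controls (median 518). Its log2 fold change of -0.88 ± 0.29 did not pass (95% interval -1.49 to -0.27, adjusted p = 0.0747). Against unmarked controls alone it did pass (-1.15, adjusted p = 0.0238) and against marked controls alone it did not (-0.67, adjusted p = 0.215). Mdm2 had 166, 92.0, 128 and 91.7 CPM in N1OE, against 69.5 to 313 CPM in controls (median 145), with a log2 fold change of -0.43 and an interval of -1.14 to 0.28 (adjusted p = 0.477). The sign of the Mdm2 difference depended on the control set, with -0.84 against marked controls (adjusted p = 0.103) and 0.09 against unmarked ones (adjusted p = 0.878). The share of genes passing was 11.7% against marked and 19.5% against unmarked controls.

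Other RNA also differed between these groups. Of 6 endothelial markers 2 passed as higher in N1OE, and their sum was 42.1 to 96.8 CPM in N1OE, against 5.84 to 41.3 CPM in controls, without overlap. Of 6 markers of fibro-adipogenic progenitors 1 passed as lower, and their sum was 480 to 673 CPM in N1OE, against 1138 to 9643 CPM in marked and 132 to 612 CPM in unmarked controls. None of 10 immediate early genes, which rise during tissue dissociation, passed (3 had an unadjusted p under 0.05 in limma), and their sum was 17166 to 44152 CPM in N1OE, against 7533 to 31418 CPM in controls. Of 14 satellite cell and myogenic markers 3 passed as higher, with a sum of 2940 to 4246 CPM in N1OE, against 1739 to 4183 CPM in controls. Of 8 pericyte markers 2 passed as higher and 1 as lower, of 4 Schwann markers 1 as higher and of 7 macrophage markers 1 as lower. The part of these genes in the results was not tested.

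**Figure D2:**
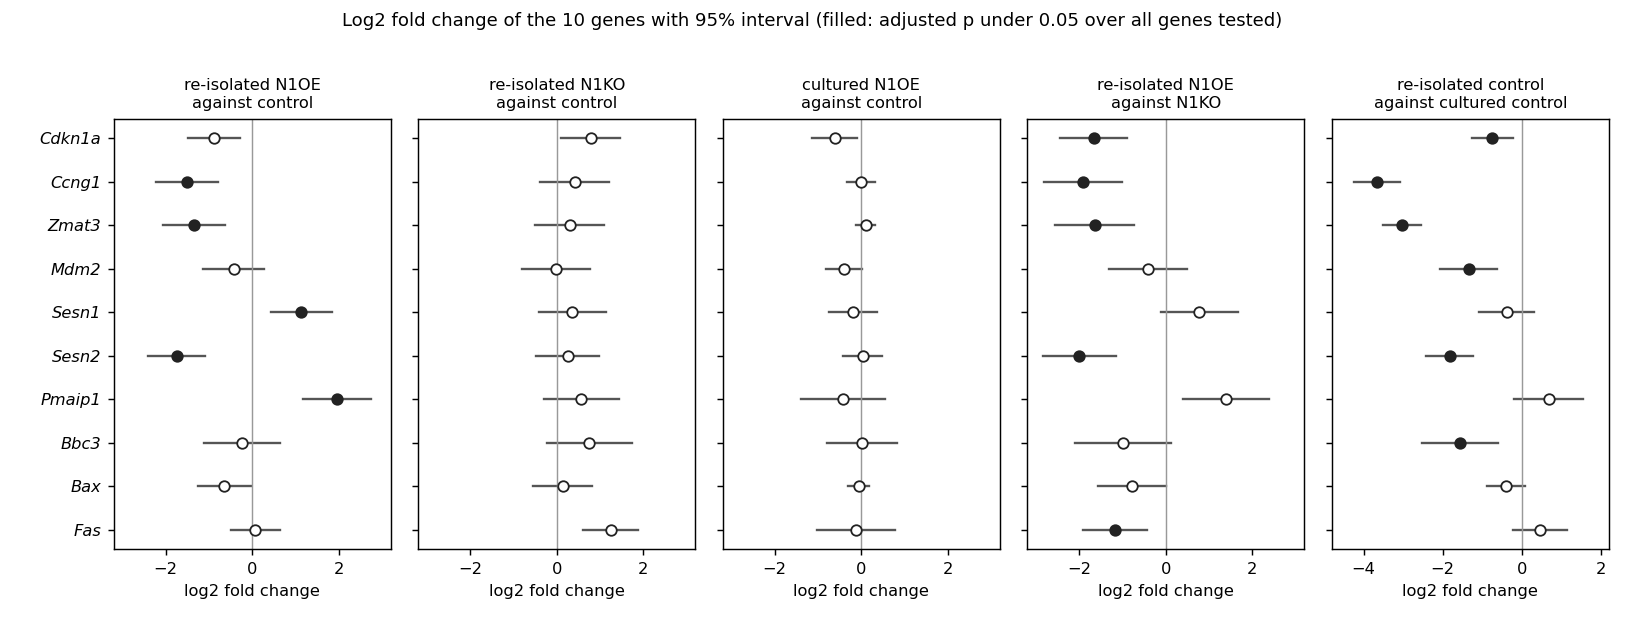
Log2 fold change of each gene in 5 comparisons, 1 per panel, with 95% intervals. Filled points passed an adjusted p of 0.05, and the vertical line marks no difference. Pmaip1 and Sesn1 lie to the right and Sesn2, Ccng1 and Zmat3 to the left for re-isolated N1OE, no point is filled for N1KO against control or in culture, and Ccng1 lies farthest left in re-isolated against cultured control.

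The Notch1 knockout was compared with the same 9 controls, so this comparison shares them with the previous one. None of the 10 members passed, where 0.657% of the 14155 genes did (0.466% higher and 0.191% lower), and 2 of the 10 had an unadjusted p under 0.05 in limma. With limma-voom on recovered reads 1 member passed. The log2 fold change was above 0 for 9 of the 10, with a median of 0.39 over the members (0.61 without N1KO replicate 2) and 0.01 over all genes.

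Fas came closest. It had 97.0, 67.2 and 72.1 CPM in N1KO, against 22.1 to 53.4 CPM in controls (median 32.8). All 3 knockout libraries lay above all controls, as did 2.85% of genes tested, whereas 0.961% lay below. The means were 78.8 ± 16 CPM in N1KO (SD, n = 3) and 34.4 ± 11.6 CPM in control (SD, n = 9), a log2 fold change of 1.25 ± 0.31 (95% interval 0.61 to 1.89, adjusted p = 0.0616). It passed against unmarked controls alone (1.42, adjusted p = 0.0108, with 7.29% of genes passing) and not against marked ones (1.11, adjusted p = 0.0756, with 3.92% passing). It also passed without control replicate 1 (1.34, adjusted p = 0.0371).

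Cdkn1a had 1271, 746 and 659 CPM in N1KO, against 329.9 to 691 CPM in controls (median 518). Replicates 1 and 2 of the knockout lay above every control and replicate 3 within them. The log2 fold change was 0.78 with an interval of 0.11 to 1.46, and it did not pass (adjusted p = 0.335). Bbc3 had 24.5, 19.7 and 32.3 CPM in N1KO, against 3.77 to 26.7 CPM in controls (0.76, interval -0.22 to 1.73, adjusted p = 0.578). Pmaip1 had 50.6, 48.5 and 97.0 CPM in N1KO, against 19.8 to 86.7 CPM in controls (0.57, interval -0.30 to 1.43, adjusted p = 0.667). These intervals are wide enough to hold differences of over 1 on the log2 scale.

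The remaining members overlapped the controls in N1KO. Ccng1 had 231, 117 and 150.3 CPM (log2 fold change 0.41, adjusted p = 0.751), Sesn1 21, 34.1 and 34.7 CPM (0.36, adjusted p = 0.786), and Zmat3 66.4, 28.8 and 40.4 CPM (0.30, adjusted p = 0.832). Sesn2 had 77.8, 36.3 and 56.4 CPM (0.25, adjusted p = 0.853), Bax 147, 118 and 83.1 CPM (0.14, adjusted p = 0.931), and Mdm2 187, 112 and 175 CPM (-0.01, adjusted p = 0.994). Replicate 1 of N1KO was the highest library of its group for 7 of the 10 members, all but Sesn1, Pmaip1 and Bbc3. Of 6 endothelial markers 3 passed as higher in N1KO, with a sum of 45.8 to 134 CPM in N1KO, against 5.84 to 41.3 CPM in controls. None of 6 fibro-adipogenic and 7 macrophage markers passed (2 and 1 had an unadjusted p under 0.05 in limma), with sums of 4190 to 13476 and 171 to 599 CPM in N1KO, against 132 to 9643 and 45.8 to 654 CPM in controls. The part of these cells in the Fas and Cdkn1a values was not tested.

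N1OE and N1KO were also set against each other, in the fit of the 3 re-isolated groups. In this contrast 5 members passed, all lower in N1OE, where 7.35% of genes passed, 2.92% higher and 4.43% lower. Cdkn1a had a log2 fold change of -1.67 ± 0.37 (adjusted p = 0.00852) and Sesn2 of -2.0 ± 0.40 (adjusted p = 0.00420). The corresponding values were -1.92 ± 0.43 for Ccng1 (adjusted p = 0.00936), -1.64 ± 0.44 for Zmat3 (adjusted p = 0.0249) and -1.17 ± 0.35 for Fas (adjusted p = 0.0454). For these 5 every N1OE library lay below every N1KO library, as did 12.1% of genes. The means were 288 ± 118 CPM in N1OE and 892 ± 331 CPM in N1KO for Cdkn1a, and 34.9 ± 6.28 CPM in N1OE and 78.8 ± 16 CPM in N1KO for Fas (SD, n = 4 and 3).

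Pmaip1 was the member with the largest positive difference, 1.39 ± 0.48, and it did not pass (adjusted p = 0.0814). Sesn1 was higher in all 4 N1OE libraries than in all 3 N1KO libraries, as were 11.2% of genes, with 0.78 ± 0.43 (adjusted p = 0.283). Bbc3 was lower in all 4 N1OE libraries than in all 3 N1KO libraries, as were 12.1% of genes, with -0.99 (adjusted p = 0.274). Bax was at -0.78 (adjusted p = 0.220) and Mdm2 at -0.41 (adjusted p = 0.597). The median log2 fold change was -1.08 over the members and 0.07 over all genes.

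By depth pattern, though not by header, this contrast crosses the sets of controls. With N1OE taken relative to the marked and N1KO relative to the unmarked controls, an alternative chosen after seeing the data, 3 members passed where 14.4% of genes did: Ccng1 (-2.25 ± 0.55, adjusted p = 0.00675), Zmat3 (-2.06 ± 0.56, adjusted p = 0.0132) and Fas (-1.48 ± 0.46, adjusted p = 0.0301). Cdkn1a (-1.19, adjusted p = 0.0892) and Sesn2 (-1.23, adjusted p = 0.0856) no longer did. Sesn2 passed with any 1 library left out. Cdkn1a was lost without N1KO replicate 1 (-1.38, adjusted p = 0.0770), as was Ccng1 (-1.65, adjusted p = 0.0753). Zmat3 was lost in 4 of those 16 fits, namely without N1OE replicates 2 or 3 or N1KO replicates 1 or 3, and Fas in 10 of them. Of 6 fibro-adipogenic markers 2 passed as lower in N1OE, with sums of 480 to 673 CPM in N1OE and 4190 to 13476 CPM in N1KO, without overlap. Of 7 macrophage markers 2 passed as lower, with sums of 29.6 to 152 CPM in N1OE and 171 to 599 CPM in N1KO, also without overlap, and 3 of 14 satellite cell and myogenic markers passed as higher. Their part was not tested.

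**Figure D3:**
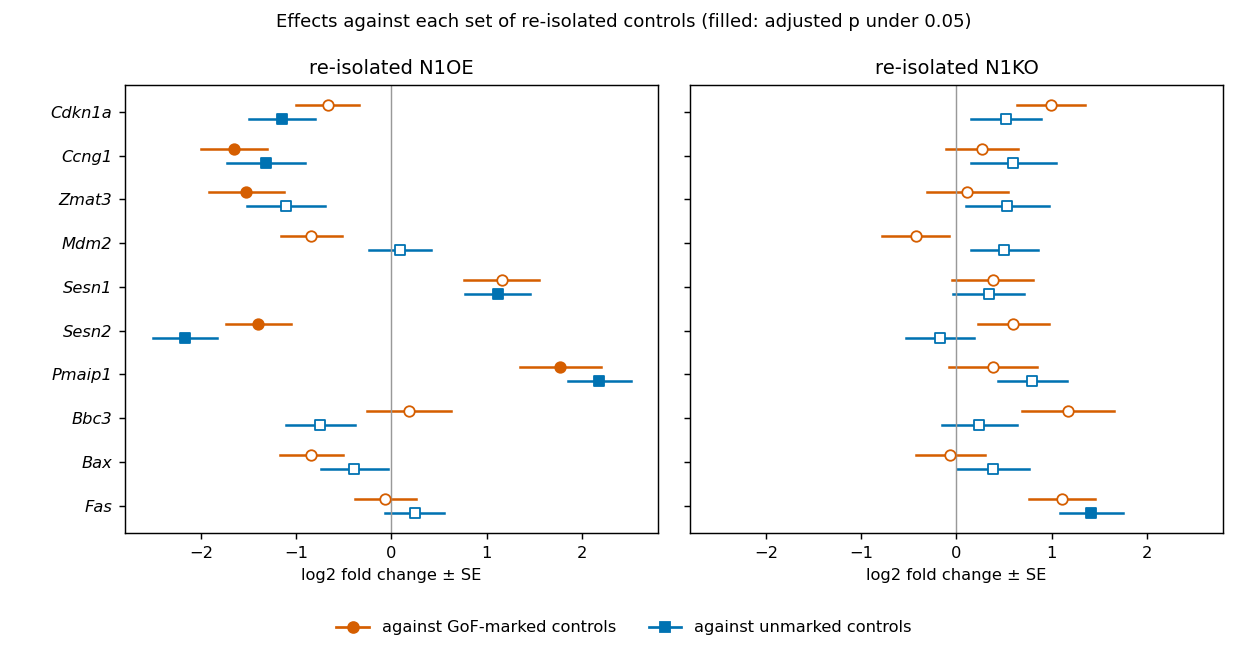
Log2 fold change of each gene, with its SE, for re-isolated N1OE and re-isolated N1KO, against the 5 marked controls (circles) and the 4 unmarked controls (squares). Filled points passed an adjusted p of 0.05. Pmaip1, Sesn2 and Ccng1 are filled against both sets for N1OE, and Fas is filled for N1KO against unmarked controls.

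In culture, none of the 10 members passed in N1OE against control, although 10.8% of the 12314 genes tested did, 4.73% higher and 6.03% lower. Of the members only Cdkn1a had an unadjusted p under 0.05 in limma, and none passed with limma-voom. Notch1 itself stood at 369.8, 297 and 322 CPM in cultured N1OE, against 61.3, 78.4, 71.0 and 105 CPM in cultured control, without overlap. In place of 1325 genes, 354, 164 and 158 passed without N1OE replicates 1, 2 and 3, and 584 without control replicate 2. The median log2 fold change was -0.10 over the members (-0.16 to -0.02 with 1 library left out) and 0.07 over all genes. After median ratio scaling 433 genes passed as higher and 849 as lower, in place of 583 higher and 742 lower, and still none of the members.

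Cdkn1a had 658, 488 and 500.4 CPM in cultured N1OE, against 636, 911, 708 and 1166 CPM in cultured control. The highest N1OE library exceeded the lowest control only. The log2 fold change was -0.61 ± 0.22 with an interval of -1.14 to -0.09 (adjusted p = 0.114, unadjusted 0.0280 in limma). Mdm2 had 291, 309.6 and 299.5 CPM in N1OE, against 295, 402, 526 and 391 CPM in control (-0.40 ± 0.18, adjusted p = 0.172). Without cultured control replicate 1, the control that overlapped N1OE, the Mdm2 difference was -0.54 and passed (adjusted p = 0.0495).

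Sesn2 and Ccng1, both lower in re-isolated N1OE, did not differ detectably in culture. Ccng1 had 1526, 1504 and 1476 CPM in N1OE, against 1252, 1648, 1817 and 1409 CPM in control, with a log2 interval of -0.34 to 0.31. Sesn2 had 183, 159 and 155 CPM in N1OE, against 133, 203, 196 and 127 CPM in control, with an interval of -0.42 to 0.49. Zmat3 had 322, 294 and 288 CPM in N1OE, against 302, 277, 299.8 and 248 CPM in control, with an interval of -0.13 to 0.33. The N1OE libraries lay close together within the wider control range for Ccng1 and Sesn2.

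Pmaip1 had 24.0, 17.9 and 17.3 CPM in cultured N1OE, against 34.6, 15.9, 16.9 and 48.9 CPM in cultured control, with a wide interval of -1.38 to 0.56. Control replicates 1 and 4 were the high ones. The intervals were -0.76 to 0.36 for Sesn1, -0.79 to 0.82 for Bbc3, -0.30 to 0.17 for Bax and -1.03 to 0.77 for Fas. Bax was the steadiest death gene, at 126, 134 and 128 CPM in N1OE, against 125, 151, 144 and 121 CPM in control. Of 9 differentiated muscle markers tested 5 passed as lower, with a sum of 213 to 1040 CPM in N1OE, against 789 to 7914 CPM in control. None of 8 proliferation markers passed (2 had an unadjusted p under 0.05 in limma), with a sum of 1946 to 2300 CPM in N1OE, against 483 to 1975 CPM in control. Their part in the Cdkn1a and Mdm2 values was not tested.

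Whether the N1OE effect differed between settings was tested directly, as the effect in re-isolated cells minus the effect in culture. By this test 2 members passed, where 3.27% of the 14509 genes did, 2.36% higher and 0.910% lower. Pmaip1 differed by 2.37 ± 0.60 (adjusted p = 0.0247), from an effect of 1.96 in re-isolated cells set against -0.41 in culture. Sesn2 differed by -1.78 ± 0.45 (adjusted p = 0.0241), from -1.74 in re-isolated cells set against 0.04 in culture. Ccng1 (-1.49 ± 0.49, adjusted p = 0.105), Zmat3 (-1.44 ± 0.47, adjusted p = 0.102) and Sesn1 (1.34 ± 0.49, adjusted p = 0.162) did not pass, and the other 5 members had adjusted p of 0.576 to 0.988. Both calls were lost with limma-voom (adjusted p = 0.0505 for Sesn2 and 0.0532 for Pmaip1) and each in 6 of the 23 fits that leave out 1 library. With marked controls alone 4 members passed, with Ccng1 at -1.64 (adjusted p = 0.0287) and Zmat3 at -1.63 (adjusted p = 0.0487) besides, where 6.76% of genes passed. With unmarked controls alone the same pair passed, Sesn2 at -2.21 (adjusted p = 0.00126) and Pmaip1 at 2.60 (adjusted p = 0.00283), where 10.8% of genes did. The kit differs between settings, and its part cannot be told apart from that of the setting.

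Control cells were compared between settings, re-isolated against cultured. Of the 10 members 6 were lower in re-isolated cells and none higher, where 58.1% of the 13731 genes tested passed, 33.9% lower and 24.1% higher. Ccng1 fell to 127 ± 42.1 CPM in re-isolated control (SD, n = 9), against 1532 ± 251 CPM in cultured control (SD, n = 4), a log2 fold change of -3.66 ± 0.28 (adjusted p = 6.73e-08). Zmat3 fell to a mean of 35.8 CPM in re-isolated control (21.9 to 55.3), against 282 CPM in cultured control (248 to 302) (-3.02 ± 0.22, adjusted p = 5.36e-08). These were the 2 largest differences among the members. Together with Sesn2 they had no overlap between settings, as did 24.7% of genes in the lower direction.

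Sesn2 fell to 48.1 ± 16.4 CPM in re-isolated control, against 165 ± 40.1 CPM in cultured control (-1.82 ± 0.28, adjusted p = 6.25e-05). Bbc3 (-1.56 ± 0.45, adjusted p = 0.00797), Mdm2 (-1.34 ± 0.34, adjusted p = 0.00335) and Cdkn1a (-0.74 ± 0.24, adjusted p = 0.0153) were lower with overlapping ranges. Sesn1 (-0.38, adjusted p = 0.334), Bax (-0.39, adjusted p = 0.152), Fas (0.47, adjusted p = 0.221) and Pmaip1 (0.68, adjusted p = 0.167) did not pass. Of the sestrin pair Sesn2 fell, whereas Sesn1 averaged 24.4 ± 9.59 CPM in re-isolated and 30.5 ± 9.03 CPM in cultured control.

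Scaling matters here, since the median log2 fold change over all genes was -0.23 with the deposited values and 0.02 after median ratio scaling. The members' median was -1.04 as deposited and -0.79 after that scaling, under which Cdkn1a did not pass (-0.49, adjusted p = 0.106). The split over all genes then became 4023 higher and 3927 lower, in place of 3316 higher and 4658 lower. Cdkn1a was also lost without cultured control replicate 4 (-0.58, adjusted p = 0.0686) and against unmarked controls alone (-0.48, adjusted p = 0.0988). Of 8 proliferation markers 6 passed as lower in re-isolated control and of 10 immediate early genes all passed as higher. Proliferation markers summed to 141 to 584 CPM in re-isolated control, against 483 to 1975 CPM in cultured control, and immediate early genes to 7533 to 31418 CPM in re-isolated control, against 185 to 570 CPM in cultured control. All 7 macrophage markers passed as higher, with sums of 45.8 to 654 CPM in re-isolated control, against 3.08 to 11.5 CPM in cultured control. Higher as well were 5 of 6 fibro-adipogenic, 5 of 8 pericyte and 3 of 4 Schwann markers. Their part was not tested, and setting and kit cannot be told apart.

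Marked and unmarked re-isolated controls carry the same genotype label, and they were compared as a measure of what the unexplained suffix goes with. Of the members 2 passed, where 27.6% of the 13230 genes did. Mdm2 had 313, 125, 189, 181 and 287 CPM in marked controls, against 135, 145, 69.5 and 103 CPM in unmarked controls (0.93 ± 0.31, adjusted p = 0.0419). Sesn2 had 24.7, 49.8, 36.1, 27.8 and 47.9 CPM in marked controls, against 57.4, 55.7, 57.2 and 76.5 CPM in unmarked controls (-0.77 ± 0.26, adjusted p = 0.0427). For Sesn2 every marked control lay below every unmarked one, as for 1726 of the 13230 genes tested. Both calls rest on the header, since with the controls split by their descriptions, which lack the suffix for replicate 7, none of the genes and none of the members passed in limma. The number of genes with 1 read divided by the number with 2 reads was 4.17 in replicate 7, outside the 1.08 to 1.5 of the unmarked controls. Leaving out 1 of the 9 controls ended the Mdm2 call in 8 fits and the Sesn2 call in 7. Cdkn1a had 528, 329.9, 439, 451 and 421 CPM in marked controls, against 518, 519, 682 and 691 CPM in unmarked controls (-0.48, adjusted p = 0.118). The N1OE effect on Sesn2 was below 0 against each set, and that on Mdm2 changed sign between them. Markers also differed between the sets. Of 9 differentiated muscle markers 6 passed as lower, with sums of 705 to 1891 CPM in marked controls, against 2322 to 5094 CPM in unmarked controls. Of 14 satellite cell and myogenic markers 6 were lower, and 5 of 8 proliferation and 4 of 7 macrophage markers were higher in marked controls. Their part was not tested.

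The wider p53 network was described from lists of genes with named roles, all of which share the comparisons above. Among 23 other genes listed as p53 targets, 2 rose and none fell in re-isolated N1OE, where 3.78% of all genes were higher and 3.29% lower. Whether p53 acts on each of the listed genes in these mouse cells was not tested. Ddb2, a sensor of ultraviolet damage, averaged 39.6 ± 18.6 CPM in N1OE and 6.93 ± 1.93 CPM in control (2.41 ± 0.34, adjusted p = 0.000151). Btg2, an antiproliferative factor, averaged 3047 ± 638 CPM in N1OE and 1335 ± 501 CPM in control (1.29 ± 0.39, adjusted p = 0.0467). Ddb2 passed in every fit that left out 1 library, and Btg2 was lost in 9 of the 16.

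Among 19 regulators of p53, 2 rose in re-isolated N1OE, against the same 3.78% of all genes. Mdm4, a relative of Mdm2 that holds p53 inactive, averaged 167 ± 78.1 CPM in N1OE and 64.0 ± 18.8 CPM in control (1.32 ± 0.28, adjusted p = 0.00677). Trp53bp2, which encodes a protein that binds p53, averaged 62.8 ± 17.2 CPM in N1OE and 32.7 ± 8.89 CPM in control (0.95 ± 0.28, adjusted p = 0.0431), and its call was lost in 12 of the 16 fits that leave out 1 library. None of 18 genes of the BCL2 family, 8 of death receptor signalling and 12 of the sestrin and mTORC1 list passed in limma, and an unadjusted p under 0.05 was reached by 2, 0 and 1 of them in that order. Of 8 inhibitors of cyclin-dependent kinases and paralogs of members 1 fell, Cdkn2b (p15), at 33.3 ± 16 CPM in N1OE and 78.4 ± 25.2 CPM in control (-1.32 ± 0.34, adjusted p = 0.0223). In N1KO against control none of the genes of these lists passed in limma, with an unadjusted p under 0.05 for 3 of the 23 other targets and 0 of the 19 regulators, Ddb2 coming nearest among the other targets (1.28 ± 0.37, adjusted p = 0.130).

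In N1OE against N1KO, Mdm4 (1.45 ± 0.36, adjusted p = 0.0171), Trp53bp2 (1.29 ± 0.35, adjusted p = 0.0291) and the tetraspanin gene Cd82 (1.66 ± 0.46, adjusted p = 0.0322) were higher in N1OE. Cdkn2b was lower (-2.30 ± 0.43, adjusted p = 0.00269) and passed with any 1 library left out, whereas the Cd82 call was lost in 5, the Trp53bp2 call in 4 and the Mdm4 call in 3 of the 16 such fits. In this contrast 2.92% of all genes were higher and 4.43% lower. Summed over all 10 members, the libraries held 701 to 999 CPM in re-isolated N1OE and 1328 to 2173 CPM in N1KO, against 943 to 1279 CPM in re-isolated control, a sum that Cdkn1a dominates. The other p53 targets summed to 5683 to 7728 CPM in N1OE and 3986 to 4622 CPM in N1KO, against 3131 to 5456 CPM in control. Btg2 makes up a large part of that sum in N1OE. Taken gene by gene in N1OE against control, 8 of these 23 targets lay above 0 and 15 below, with a median log2 fold change of -0.14.

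In culture none of the 23 other p53 targets passed in N1OE in limma, and 2 had an unadjusted p under 0.05. Among 16 genes of the BCL2 family 3 fell, where 6.03% of all genes did, and all 3 are known as antiapoptotic: Mcl1 (-0.64 ± 0.11, adjusted p = 0.0148), Bcl2l2 (-0.62 ± 0.11, adjusted p = 0.0192) and Bcl2l1 (-0.63 ± 0.14, adjusted p = 0.0368). Over these 16 genes, which include others of either role, 7 lay above 0 and 9 below, with a median log2 fold change of -0.06. Trib3, a stress-induced pseudokinase, fell by 2.42 ± 0.37 on the log2 scale (adjusted p = 0.0119), and Cflar, an inhibitor of death receptor signalling, by 0.35 ± 0.09 (adjusted p = 0.0480). Of the regulators, Atr (0.54 ± 0.09, adjusted p = 0.0173) and Usp7 (0.43 ± 0.09, adjusted p = 0.0283) rose, and Trp63, a relative of Trp53, fell by 3.49 ± 0.87 (adjusted p = 0.0462). Leaving out 1 of the 7 libraries ended these calls in 2 fits for Trib3 and 3 for Mcl1 and Atr. The calls for Bcl2l2 and Usp7 were lost in 4, for Bcl2l1 in 5 and for Cflar and Trp63 in 6. The N1OE effect differed between settings for Ddb2 (2.2 ± 0.50, adjusted p = 0.0121), Trp63 (4.90 ± 0.85, adjusted p = 0.00115) and Ppp1r13b, another gene of the p53-binding ASPP family (2.10 ± 0.52, adjusted p = 0.0214). Over all genes 3.27% passed this test, and setting and kit cannot be told apart. The Ppp1r13b call was lost in 4 of the 23 fits that leave out 1 library, and the Ddb2 and Trp63 calls in none. Other alternatives ended a call of these genes 3 times.

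Between settings the wider lists moved in both directions. Of the 23 other targets 5 were higher and 14 lower in re-isolated control. Tnfrsf10b, a death receptor, averaged 10.1 ± 1.74 CPM in re-isolated and 182 ± 57.4 CPM in cultured control (-4.12 ± 0.23, adjusted p = 4.71e-09). Trp53inp1, a stress-induced partner of p53, averaged 19.1 ± 9.63 CPM in re-isolated and 476 ± 69.2 CPM in cultured control (-4.8 ± 0.37, adjusted p = 7.03e-08). Cd82 went the other way, with 912 ± 319 CPM in re-isolated and 132 ± 35.1 CPM in cultured control (2.75 ± 0.29, adjusted p = 1.70e-06). Of 19 regulators 2 were higher and 13 lower, and of 16 BCL2 family genes 2 were higher and 10 lower, against 24.1% higher and 33.9% lower over all genes. The members and these lists share the difference in kit.

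**Figure D4:**
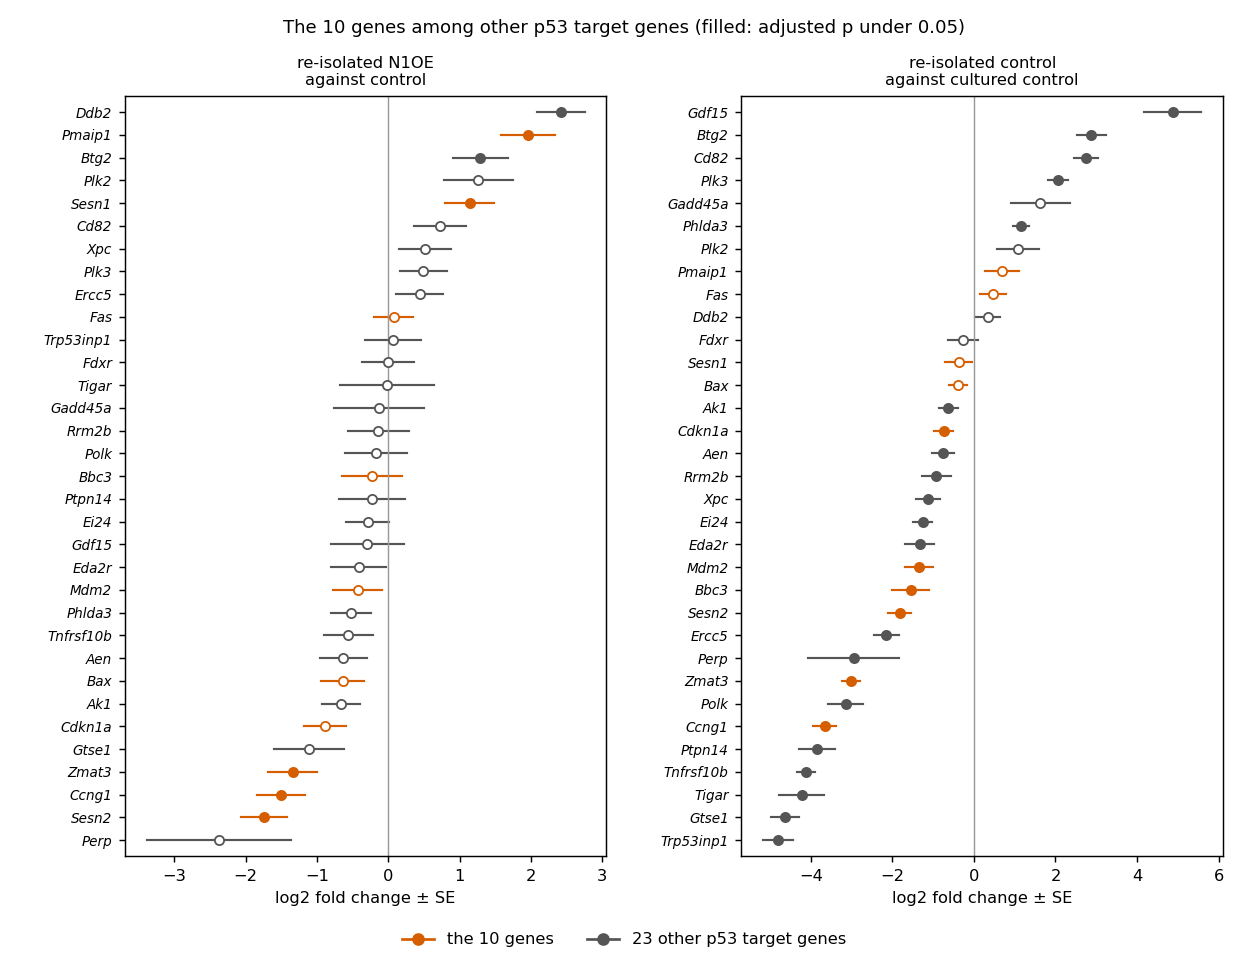
Log2 fold change, with its SE, of the 10 genes and 23 other p53 target genes in re-isolated N1OE against control and in re-isolated control against cultured control. Filled points passed an adjusted p of 0.05. For re-isolated N1OE, Ddb2, Pmaip1, Btg2 and Sesn1 are filled on the right and Sesn2, Ccng1 and Zmat3 on the left.

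How far the members moved together from library to library was described after the mean of each of the 6 sets (the re-isolated controls taken as 2) had been subtracted from the log2 values of the 23 libraries. Over the 45 pairs of members the median Pearson r was 0.0086 and 23 were above 0. The strongest positive pair was Sesn2 with Bbc3 (0.76), followed by Sesn1 with Bbc3 (0.66), Cdkn1a with Bax (0.62), Mdm2 with Ccng1 (0.53) and Cdkn1a with Fas (0.51). The strongest negative pairs were Pmaip1 with Bax (-0.64) and Mdm2 with Sesn1 (-0.58). Pairs above and below 0 were thus about equally many. These are descriptions, since the points share libraries and depth.

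**Figure D5:**
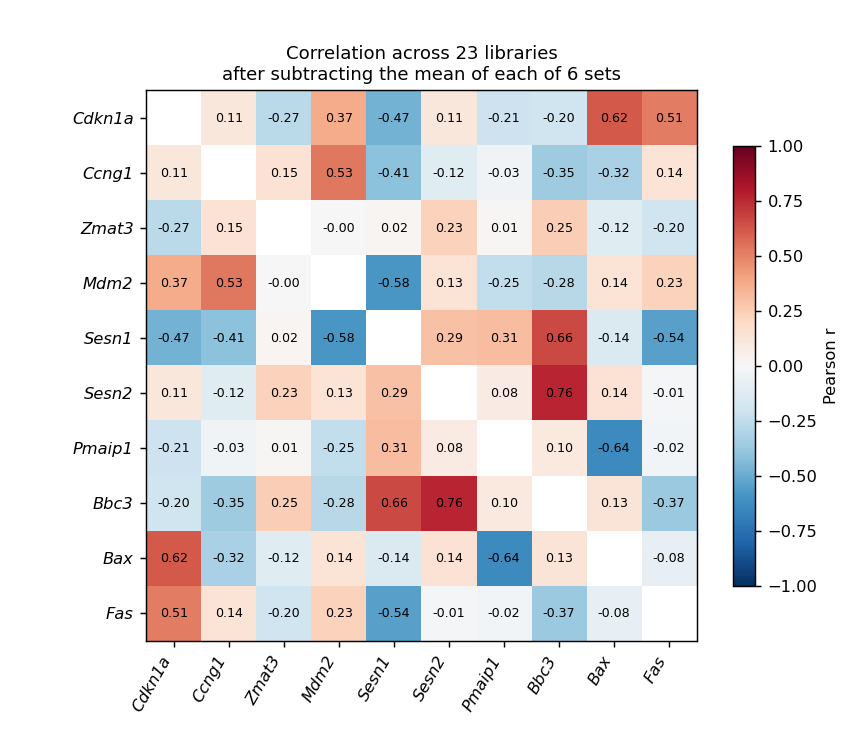
Pearson correlation of each pair of the 10 genes over 23 libraries, after subtracting the mean of each of 6 sets. Colour runs from negative to positive r. Sesn2 with Bbc3 is the highest at 0.76 and Pmaip1 with Bax the lowest at -0.64.

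Among all 14509 genes tested, those whose log2 values were most like each member over the 23 libraries, after the same subtraction, were listed, leaving out predicted genes. Pmaip1 was closest to Hey1 (r = 0.900), a transcriptional target of Notch, then Ptpn3 (0.892) and Myom1 (0.860). Cdkn1a was closest to Cdkn2b (0.891), Srp54a (0.887) and Surf4 (0.875), and Mdm2 to Btbd19 (0.813), Runx2 (0.809) and Swap70 (0.791). Ccng1 was closest to Gnpda2 (0.904), Desi2 (0.902) and Vcpkmt (0.888), and Zmat3 to Tstd2 (0.900), Prelid1 (0.893) and Chst14 (0.884). No member was among the 3 genes nearest to another. Sesn1 lay nearest Uevld (0.878), Sesn2 nearest Acbd6 (0.878), Bbc3 nearest H2ax (0.940), Bax nearest Edf1 (0.934) and Fas nearest Pdgfrl (0.874). These values describe variation within the sets of libraries.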

How the data were processed

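RNA was measured in 23 libraries in 5 groups, taken from the sample titles. The submitters' processing notes name Trimmomatic 0.33, FastQC, featureCounts, edgeR and the build mm10. The aligner and the annotation are not given in the sources used here. Log2 CPM were deposited by the authors, with a prior of 0.0548 CPM added, so that 0 reads stand at -4.19. Steps between low values gave whole reads for 100% of values under 1000 reads (tolerance 0.05 reads), but whether counts had been adjusted before deposit was not decided. Totals of 11637817 to 29154176 reads make 3 reads worth 0.103 to 0.258 CPM, and the lowest member value was 3.77 CPM, for Bbc3. What the low-input amplification of the re-isolated libraries adds to counting error was not tested. Of the gene IDs 21186 matched GENCODE M21.

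The deposited log2 values were tested with limma 3.58.1 in R 4.3.3 (eBayes with a trend, two-sided) over genes that reached 1 CPM in 3 or more of the libraries fitted. Adjusted p are after Benjamini-Hochberg over all genes tested, with a threshold of 0.05. Errors of log2 fold changes are SE and those of CPM are SD. The 3 re-isolated groups shared a fit, cultured groups were fitted alone, controls of both settings were fitted together, and all 5 groups entered the difference of effects. The fit was tested on simulated data.

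All 10 members are named in every comparison, and from the other lists up to 4 genes with the smallest p among those that passed. The members and lists were chosen with earlier results of these data known. Alternatives were no filter, a filter of 5 CPM, a pseudocount of 1 CPM, median ratio scaling, limma-voom on recovered reads, replicate blocks, fits of 2 groups alone, each control set alone, the control sets by description, and each library left out. Relating N1OE and N1KO each to its own set of controls was added after the data were seen. Promoters were read from RefSeq (GRCm38.p6) and cover 8 of the 10 members. Libraries of the same group differed by more than sampling noise and were counted separately.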

Additional observations from a re-analysis of the deposited data

Results flagged for a closer look

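The N1OE effect differed between settings for 2 of the 10 genes by the test of the difference itself, re-isolated minus cultured. For Pmaip1 the difference was 2.37 on the log2 scale (adjusted p = 0.0247), and all 4 re-isolated N1OE libraries lay above all 9 re-isolated controls. For Sesn2 it was -1.78 (adjusted p = 0.0241), and all 4 re-isolated N1OE libraries lay below all 9 re-isolated controls. With limma-voom neither passed (adjusted p = 0.0505 for Sesn2 and 0.0532 for Pmaip1), nor with the replicate block (0.0974 and 0.0582), and each call was lost in 6 of the 23 fits that leave out 1 library. The setting and the kit cannot be told apart.

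For Bbc3, re-isolated control replicate 1 stood apart below the other 8 controls, with 3.77 CPM against a group median of 15.1. On log2 values its gap to the nearest library was 0.527 of the whole range of the group, above the critical value (Dixon, 95%) for 9 libraries. This was 1 flag among 30 pairs of gene and group examined, and chance flags about 1 in 20 groups.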

How the results depend on the processing

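Samples with the same replicate number in their titles did not pair. Correlations of their deviations were 0.002, 0.084 and 0.278 in the cultured pairs and -0.150 to 0.147 in the others. Not every sample correlated best with its own number (1 of 3 cultured pairs, 0 of 4 for re-isolated N1OE with control, 0 of 3 for N1KO with control, 1 of 3 for N1OE with N1KO). The column headers number some libraries differently, and pairing by those numbers was not tested. The replicate block uses the title numbers as well. With the replicate block, re-isolated N1OE against control passed for 445 genes and 3 members (Sesn1, adjusted p = 0.174, and Zmat3, adjusted p = 0.127, did not pass), N1KO against control for 61 genes, and N1OE against N1KO for 3 members (Cdkn1a at 0.0767 and Fas at 0.194 did not pass). For the difference of N1OE effects 0 members passed under the block, with Sesn2 at 0.0974 and Pmaip1 at 0.0582.

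Against marked controls alone, 1627 genes passed in N1OE, 544 in N1KO and 967 in the difference of effects, the last with 4 members. Against unmarked controls alone, 2691 genes passed in N1OE, 1008 in N1KO with 1 member, Fas, and 1546 in the difference of effects. N1KO against control gave 179 genes with no filter, 240 with a pseudocount of 1 CPM, 285 with limma-voom and 35 with the 2 groups fitted alone, and 1 member, Fas, under each of the first 3. N1OE against N1KO gave 1608 genes with the 2 groups alone, and 2045 genes and 3 members with N1OE relative to marked and N1KO relative to unmarked controls. The difference of effects gave 223 genes and 0 members with limma-voom. Marked against unmarked controls gave 1 member with no filter and 1 with median ratio scaling, and 0 genes and 0 members when split by the descriptions, which lack the suffix for replicate 7.

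With 1 library left out, the genes and members passing ranged from 158 to 1765 and 0 to 1 in cultured N1OE, 562 to 1090 and 2 to 5 in re-isolated N1OE, 12 to 108 and 0 to 1 in N1KO, and 465 to 1231 and 1 to 5 in N1OE against N1KO. The lowest counts of genes came without N1OE replicate 3 in culture, N1OE replicate 2 in re-isolated N1OE, N1KO replicate 2 in N1KO and N1KO replicate 1 in N1OE against N1KO. They ranged from 6892 to 8109 and 5 to 6 between settings, 240 to 501 and 0 to 2 in the difference of effects, and 2434 to 3821 and 0 to 2 between control sets.

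Only members that did not pass reversed sign. In cultured N1OE these were Sesn2 (-0.022 with median ratio scaling, -0.076 with the block), Bbc3 (-0.045 and -0.26) and Fas (0.16 with the block). In re-isolated N1OE they were Fas (-0.0056 with median ratio scaling, -0.062 against marked controls), Bbc3 (0.0062 with the block, 0.19 against marked controls) and Mdm2 (0.087 against unmarked controls). In N1KO they were Mdm2 (0.012 with median ratio scaling, 0.50 against unmarked controls), Sesn2 (-0.17 against unmarked controls) and Bax (-0.063 against marked controls). In the difference of effects they were Bbc3 (0.072 with the block, 0.17 against marked controls) and Mdm2 (0.48 against unmarked controls), and between control sets Sesn1 (0.038 by the descriptions). With 1 library left out, log2 fold changes in cultured N1OE ranged from -0.076 to 0.15 for Sesn2, -0.26 to 0.28 for Bbc3, -0.11 to 0.073 for Ccng1 and -0.38 to 0.16 for Fas. In re-isolated N1OE they ranged from -0.47 to 0.015 for Bbc3 and -0.027 to 0.19 for Fas. In N1KO they ranged from -0.16 to 0.22 for Mdm2, -0.0055 to 0.54 for Sesn2, -0.053 to 0.36 for Bax and -0.018 to 0.58 for Zmat3. In the difference of effects they ranged from -0.21 to 0.11 for Mdm2, -0.51 to 0.031 for Bbc3 and -0.090 to 0.45 for Fas, and between control sets from -0.26 to 0.24 for Sesn1. The cause of these changes was not tested. A fit that leaves 2 libraries in a group assumes that they vary like the other groups.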
